A study of Homo sapiens with 4 samples.

Results

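The GADD45 (growth arrest and DNA damage inducible 45) family consists of 3 genes, GADD45A, GADD45B and GADD45G. They were taken by symbol from a table of 58735 genes, and all 3 had counts in at least 1 library. The family was selected because of its measured levels in these libraries, so the values of its members are given as a description, without a test. The libraries came from SUP-M2, an ALK-positive anaplastic large cell lymphoma line of human origin. This lymphoma is a tumour of T cell origin that carries the NPM1-ALK fusion. In the shscramble group (n = 2 libraries) the cells carried a scrambled short hairpin RNA and the genotype label is control. In the shGOLM1 group (n = 2 libraries) they carried a short hairpin RNA against GOLM1, which encodes a Golgi membrane protein, and the genotype label and the design text call this group a GOLM1 knockout. No further treatment or time is given in the labels, nor whether the libraries of a group came from separate cultures or carried the same hairpin, so every p-value reflects no more than library-to-library spread, possibly technical.

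GADD45 proteins are small, acidic proteins of the nucleus and cytoplasm with no known enzymatic activity, and they act by binding other proteins. GADD45A is induced by DNA damage and is a target of FOXO factors and BRCA1, GADD45B is best known as an NF-kB and TGF-beta target that is induced quickly by stress, and GADD45G was described as a cytokine-inducible gene. All of them bind the kinase MTK1 (MAP3K4) at the top of a p38 and JNK cascade. They also bind CDK1 with cyclin B1 at the G2/M transition, as well as PCNA and p21, and they take part in DNA repair and in active DNA demethylation with TDG. In T cells, GADD45B and GADD45G act downstream of IL12 and IL18 in the production of interferon gamma.

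The 4 libraries held between 27544171 and 31972153 counts in genes. GOLM1 was measured at 211 and 213 CPM (counts scaled to a common library size, with TMM factors) in shscramble and at 69.5 CPM in each shGOLM1 library, so the targeted transcript was lower by 1.61 on the log2 scale in both. The shGOLM1 libraries otherwise differed from each other. Mitochondrially encoded genes took 0.455% of counts in shGOLM1 replicate 2 against 1.95% to 2.38% in the other libraries, and ribosomal protein genes took 14.7% against 6.57% to 8.77%. The 8 lymphoma markers were detected in every library and summed to 3874 to 5880 CPM. NPM1 was the largest part in each, at 2941, 2690, 1709 and 4701 CPM in shscramble replicates 1 and 2 and shGOLM1 replicates 1 and 2. Other markers went different ways in the same libraries. ALK was at 340, 316, 327 and 170 CPM, TNFRSF8, the CD30 gene, at 634, 613, 538 and 88.3 CPM, and GZMB, a cytotoxic granule gene, at 118, 86.2, 149 and 20.4 CPM. PRF1, the perforin gene, was at 2.91, 2.70, 620 and 145 CPM. Of 8 T cell markers, CD3G, CD5 and TRBC2 were at 0 in shscramble, CD3E had 1 and 0 counts there, and TRAC, CD2, CD3D and CD7 were detected. TRAC was at 5.97, 3.18, 10.7 and 12.3 CPM and CD3D at 1.84, 1.35, 0.547 and 6.23 CPM. The 8 T cell markers summed to between 7.90 and 24.6 CPM. The B cell list summed to between 13.0 and 21.3 CPM, nearly all of it BLK (12.8, 13.2, 20.9 and 15.9 CPM), with MS4A1 at 0 in shscramble. The myeloid list summed to between 232 and 310 CPM, nearly all of it CSF1R (234, 242, 309 and 231 CPM), with CD33, SPI1 and CEBPA at 0 in shscramble. Epithelial (0.612 to 3.16 CPM) and fibroblast (0.276 to 2.19 CPM) markers were near 0. Each shGOLM1 library was therefore set against the shscramble pair on its own.

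The 3 genes lie on different chromosomes but share one gene structure. On GRCh38, GADD45A (ENSG00000116717) is on the plus strand of chromosome 1 from 67685061 to 67688338, GADD45B (ENSG00000099860) on the plus strand of chromosome 19 from 2476122 to 2478259, and GADD45G (ENSG00000130222) on the plus strand of chromosome 9 from 89605013 to 89606555. In GENCODE 29 the principal transcript of each has 4 exons, and the second exon is 102 bases long in all 3. Their coding sequences have 498, 483 and 480 bases. Aligned in pairs, the coding sequences were identical at 61.0% of positions for GADD45A and GADD45B, 62.5% for GADD45A and GADD45G and 66.3% for GADD45B and GADD45G. The longest run of bases that any pair of coding sequences shared was 18, so the family members are not near-identical copies. No annotated gene overlapped a member. The GADD45A transcript carries 2 copies of ATTTA, the core of AU-rich decay elements, in its 3' untranslated region, a number that 47.4% of 18928 coding genes reach, whereas the transcripts of GADD45B and GADD45G carry 0.

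The promoters of GADD45B and GADD45G are shown because GADD45B had the largest difference between libraries in the family and GADD45G was near 0 throughout. The sequences are those of RefSeq (GRCh38.p14), on the plus strand, at chr19:2475877-2476121 for GADD45B and chr9:89604762-89605011 for GADD45G, and they end before the first base of the gene in the deposited table. For GADD45B that leaves 245 of the 250 upstream bases of the RefSeq window. The reference table matched these 2 of the 3 members by symbol, and not GADD45A. Capitals mark the CCAAT box, the TATA box in the exact form TATAAA and the E-box CACGTG.
GADD45B: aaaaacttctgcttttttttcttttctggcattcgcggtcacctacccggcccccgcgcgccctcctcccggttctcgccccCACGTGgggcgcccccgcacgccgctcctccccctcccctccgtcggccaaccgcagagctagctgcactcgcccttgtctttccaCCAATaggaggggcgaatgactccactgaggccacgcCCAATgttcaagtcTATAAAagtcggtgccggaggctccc
GADD45G: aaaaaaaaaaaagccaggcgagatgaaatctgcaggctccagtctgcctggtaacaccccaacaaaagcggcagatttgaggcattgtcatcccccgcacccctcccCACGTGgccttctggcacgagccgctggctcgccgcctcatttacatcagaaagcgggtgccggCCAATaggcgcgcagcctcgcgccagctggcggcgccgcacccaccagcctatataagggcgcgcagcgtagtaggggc
GADD45B held CCAAT at 77 and 40 bases and TATAAA at 26 bases before the gene start, and CACGTG at 163 bases. GADD45G held CCAAT at 80 and CACGTG at 144 bases before the start, and no exact TATAAA. The TATA-like letters tatataag stand near the end of the GADD45G sequence. They were not among the motifs searched, so the lack of a TATA box is not read from this. Both strands were searched, and none of the motifs overlapped another. Over the 250 upstream bases of each of 27305 RefSeq promoters, 32.7% held CCAAT, 11.4% TATAAA and 6.28% CACGTG. Neither window of 250 bases held TGACTCA (AP-1, in 4.38% of promoters), TGACGTCA (CRE, 1.73%), GTAAACA (forkhead, 3.08%), TGATGCAA (an ATF4 composite site, 0.835%), ATTTGCAT (octamer, 1.68%) or the NF-kB consensus (4.98%). A match is a description of the letters only.

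GADD45A was the more abundant member in shscramble and in shGOLM1 replicate 1. Its counts were 748 and 638 in shscramble replicates 1 and 2, 915 in shGOLM1 replicate 1 and 8976 in shGOLM1 replicate 2, which correspond to 22.9, 19.2, 26.4 and 394 CPM. Replicate 1 of shGOLM1 lay just above both shscramble libraries, and replicate 2 lay far above the other 3. The ratio to shscramble was 1.25 in replicate 1 (95% exact interval 1.15 to 1.36) and 18.7 in replicate 2 (17.7 to 19.8), where the intervals cover counting error only. On the log2 CPM scale the differences were 0.33 and 4.23, while the shscramble libraries differed from each other by -0.26 (replicate 2 minus replicate 1). The difference in replicate 1 was thus close to the spread of the control pair. The mean was 21.0 ± 2.64 CPM over the shscramble libraries and 210 ± 260 CPM over the shGOLM1 libraries (SD, n = 2 for each mean), so the spread of the shGOLM1 group exceeded its mean. In bulk RNA a change in the share of cells that express the gene and a change in RNA per cell cannot be told apart.

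GADD45B showed the larger difference in replicate 2 and the opposite sign in replicate 1. It had 332 and 334 counts in the shscramble pair, 286 in shGOLM1 replicate 1 and 14100 in shGOLM1 replicate 2, or 10.2, 10.03, 8.24 and 619 CPM. The shscramble libraries were almost equal, replicate 1 of shGOLM1 lay slightly below them and replicate 2 above them. Its ratio to shscramble was 0.816 (0.708 to 0.939) in replicate 1 and 61.3 (56.7 to 66.3) in replicate 2, and its log2 differences were -0.29 and 5.93. The mean was 10.1 ± 0.0936 CPM over the shscramble libraries and 314 ± 432 CPM over the shGOLM1 libraries (SD, n = 2 for each mean), and the shscramble values lay between the shGOLM1 values. Replicate 2 held 75.1 times the GADD45B of replicate 1 (66.8 to 84.7) and 14.9 times its GADD45A (13.96 to 16.01).

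GADD45G was close to the detection limit in every library. It had 6 counts in shscramble replicate 1, 0 in shscramble replicate 2, 0 in shGOLM1 replicate 1 and 9 in shGOLM1 replicate 2, that is 0.184, 0, 0 and 0.395 CPM, and it did not pass the filter on low counts. A library with a count of 0 allows up to 3 counts, or 0.0901 CPM in shscramble replicate 2 and 0.0864 CPM in shGOLM1 replicate 1. The groups overlapped, and a library of each group had none. The ratio of shGOLM1 replicate 2 to shscramble was 4.34 with a counting interval of 1.38 to 14.8, but it rests on 9 against 6 counts, and the shscramble pair itself held 6 and 0.

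**Figure D1:**
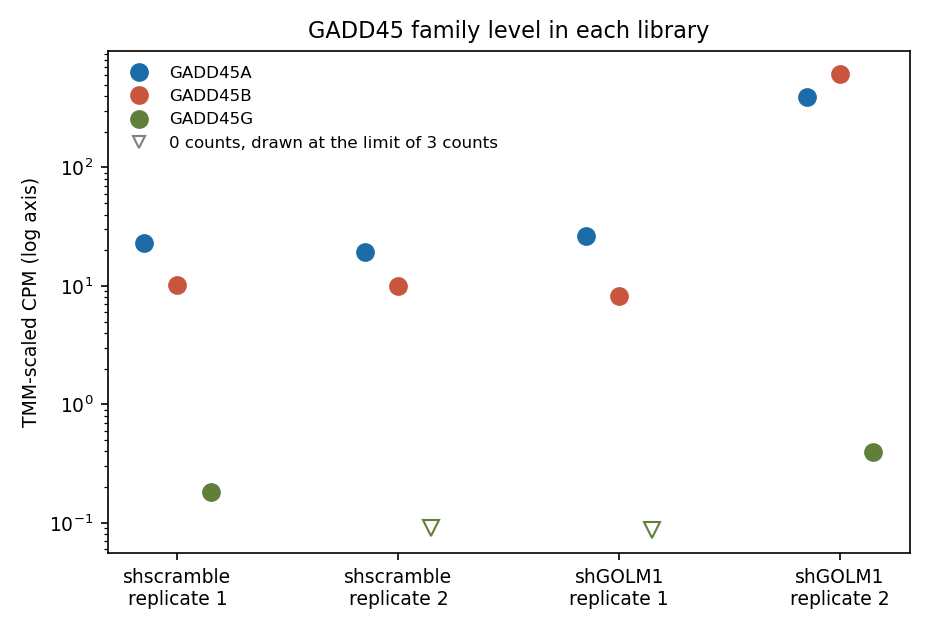
CPM of GADD45A, GADD45B and GADD45G in each of the 4 libraries, on a log axis, with counts of 0 drawn at the limit of 3 counts. Only shGOLM1 replicate 2 stands apart, at 394 CPM for GADD45A and 619 CPM for GADD45B.

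Per transcript length the order of the family members changed between libraries. By the authors' FPKM, GADD45A stood at 11.0, 9.17, 12.4 and 185, GADD45B at 4.71, 4.65, 3.75 and 281, and GADD45G at 0.138, 0, 0 and 0.290 in shscramble replicates 1 and 2 and shGOLM1 replicates 1 and 2. GADD45A exceeded GADD45B in the first 3 of these libraries, and GADD45B exceeded GADD45A in the last. GADD45A made up 69.3%, 66.4% and 76.8% of the family's summed FPKM in those 3 libraries and 39.7% in shGOLM1 replicate 2, where GADD45B made up 60.3%. As a share of counts, GADD45A took 68.9% (exact interval 66.0 to 71.6), 65.6% (62.6 to 68.6), 76.2% (73.7 to 78.6) and 38.9% (38.3 to 39.5) of 1086, 972, 1201 and 23085 family counts. The summed FPKM of the family was 15.8 and 13.8 in shscramble, 16.1 in shGOLM1 replicate 1 and 467 in shGOLM1 replicate 2.

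**Figure D2:**
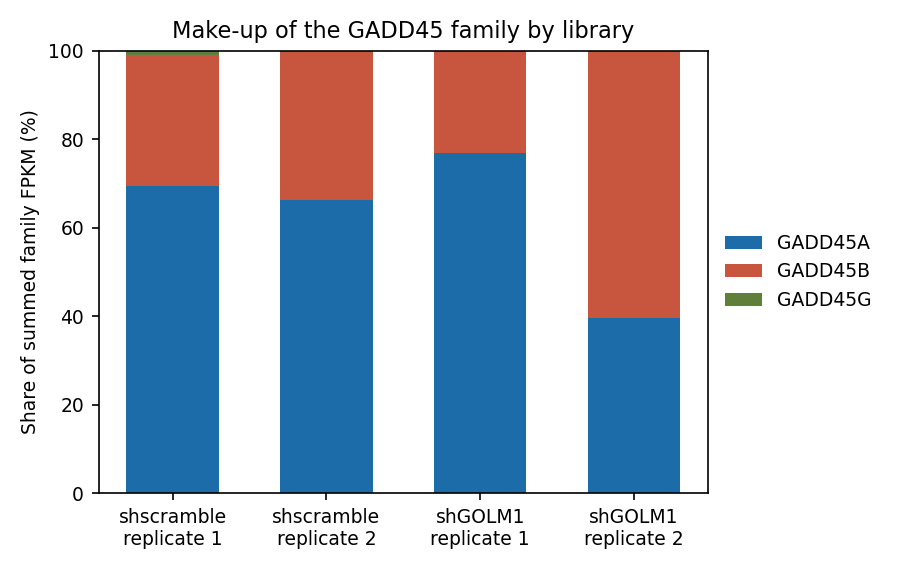
Share of the summed FPKM of the GADD45 family that each member holds in each library, in percent. GADD45A holds 66.4% to 76.8% in 3 libraries and 39.7% in shGOLM1 replicate 2.

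Among coding genes detected in a library, GADD45A ranked in the top 29.5%, 33.4%, 22.2% and 1.87% by FPKM, and GADD45B in the top 48.0%, 48.6%, 49.4% and 1.26%. GADD45B was thus near the middle of the transcriptome in 3 libraries and at rank 159 of 12634 genes in shGOLM1 replicate 2, where GADD45A was at rank 236. Ordered by the log2 difference from shscramble over the 14166 tested genes, GADD45A was at rank 4734 in replicate 1 and 209 in replicate 2, and GADD45B at 9457 and 43. Of the 2 members that passed the filter, 0 were at least 4-fold higher than shscramble in replicate 1, where 3.8% of tested genes were, and both were in replicate 2, where 10% of tested genes were. The members were selected on these differences, so nothing is read from that count. The authors' deposited table gives a log2 fold change of shGOLM1 against shscramble of 3.29 for GADD45A, 4.93 for GADD45B and 1.06 for GADD45G, and -1.64 for GOLM1. Those values average over shGOLM1 libraries that, for the GADD45 genes, lay far apart.

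The nearest tested genes beside GADD45B had other patterns than GADD45B. LMNB2, a lamin gene 19.1 kb to the left of GADD45B, stood at 272, 260, 203 and 68.7 CPM, so it was lowest in the library in which GADD45B was highest. SLC39A3, a zinc transporter gene 253.9 kb to the right of GADD45B, stood at 38.4, 33.3, 33.2 and 17.9 CPM. SERBP1, 254.6 kb to the left of GADD45A, was lower in both shGOLM1 libraries, by log2 differences of -0.376 and -0.999. GNG12, which encodes a G protein subunit and lies 13.1 kb to the right of GADD45A, was at 0 in the shscramble pair. It had 25 and 62 counts, or 0.720 and 2.72 CPM, in shGOLM1 replicates 1 and 2. GNG12 passed the filter on low counts only through the shGOLM1 libraries, so nothing is read from its pattern beside that of GADD45A. SEMA4D, 106.9 kb to the left of GADD45G, was at 19.6, 19.6, 56.1 and 63.3 CPM, unlike GADD45G. These are the nearest tested genes on each side, except AL158071.2 to the right of GADD45G, which is 1498 kb away and had 1, 0, 10 and 12 counts. AL158071.2 also passed the filter only through the shGOLM1 libraries.

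Genes whose levels followed the members most closely were sought among 9027 tested genes with at least 10 CPM in 1 library, by the Euclidean distance of log2 CPM centred on the shscramble mean over the 4 libraries. This is a likeness over 4 values and carries no test. Nearest to GADD45A was NRN1, which encodes neuritin, at 58.9, 52.8, 75.9 and 992 CPM and a distance of 0.154. BTG1, an antiproliferative gene, followed at 0.369 with 23.9, 19.8, 35.4 and 406 CPM, then DHPS at 0.376 (1.56, 1.68, 1.99 and 38.1 CPM) and PLAUR, the urokinase receptor gene, at 0.384 (8.18, 6.25, 8.33 and 105.6 CPM). GADD45B had no neighbour as close. Its nearest genes were DDX47 at 0.904 with 0.551, 0.330, 0.375 and 17.4 CPM, IER3, an immediate early response gene, at 0.906 with 15.4, 18.1, 11.5 and 564 CPM, TSC22D3 at 0.979 with 2.63, 1.77, 2.36 and 77.7 CPM, and PPP1R15A (GADD34) at 1.02. GADD45A was the 18th nearest gene to GADD45B, and GADD45B the 232nd nearest to GADD45A. DHPS, PLAUR, DDX47 and TSC22D3 passed the 10 CPM minimum only through shGOLM1 replicate 2, the library in which the members are high.

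**Figure D3:**
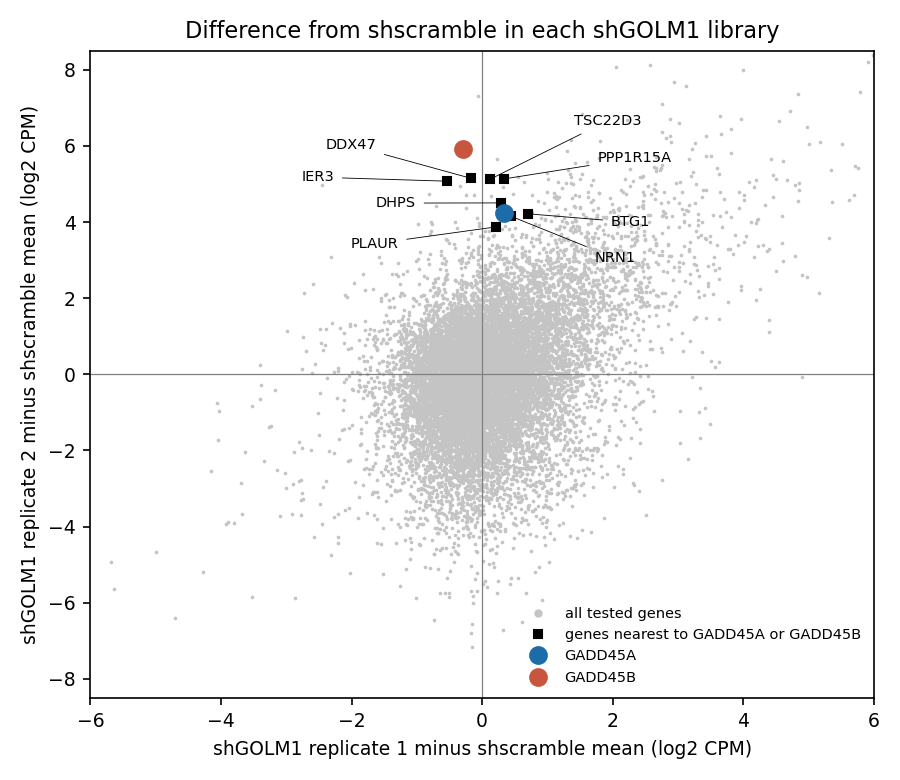
Difference of shGOLM1 replicate 2 (vertical) and replicate 1 (horizontal) from the shscramble mean, in log2 CPM, for the tested genes (grey), GADD45A, GADD45B and the 4 genes nearest to each (black squares). Both members lie near 0 on the horizontal axis and at 4.23 and 5.93 on the vertical axis, and 19 genes fall outside the axes.

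The regulators, partners and namesakes of the family were described with 7 lists of 106 genes, fitted with edgeR over all tested genes at an adjusted p threshold of 0.05. With all 4 libraries as groups of 2, edgeR called 0% of 14166 genes (smallest adjusted p 0.42, and 1668 genes at an unadjusted p under 0.05), limma-voom called 0 and DESeq2 533. The lists were therefore read in fits of a single shGOLM1 library against the shscramble pair, in which the lone library is assumed to vary like that pair. Such fits compare libraries and not conditions. The fit of replicate 1 called 20.4% of genes higher and 24.1% lower, and the fit of replicate 2 called 33.3% higher and 34.1% lower. Both fits called 9.62% of the genes higher and 13.9% lower, and 11.2% had opposite calls. Replicate 2 against replicate 1, with the spread of the shscramble pair, called 30% higher and 33.1% lower. The median log2 difference of all tested genes was 0.00 in replicate 1 and -0.04 in replicate 2.

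Calls among known transcriptional regulators of GADD45 genes went both ways, as they did among all tested genes, whose shares are given above. Nothing about the list is read from these counts. Of 14 tested (ZNF350 and WT1 were at 0 in shscramble), 5 were called higher and 2 lower in replicate 1, and 6 higher and 5 lower in replicate 2, and 4 were higher in both. Their median log2 difference was 0.15 and 0.00. FOXO3, a forkhead factor, was at 7.75, 7.24, 18.1 and 20.4 CPM in shscramble replicates 1 and 2 and shGOLM1 replicates 1 and 2, the order also used for the genes that follow. It was higher than shscramble in both shGOLM1 libraries by a similar amount (edgeR adjusted p = 6.51e-06 and 3.54e-06). TP73, a transcription factor gene, was also called higher in both. These regulators were higher in replicate 1 too, where GADD45A and GADD45B were near the shscramble level. The activity of the 2 factors was not measured, and their part in the GADD45 levels was not tested.

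ATF4, the effector of the integrated stress response, had opposite calls, at 379 and 350 CPM in shscramble, 191 CPM in replicate 1 and 1513 CPM in replicate 2. MYC, which represses GADD45A, was at 90.9, 92.2, 92.3 and 14.6 CPM, and BRCA1, which induces GADD45A, at 75.1, 89.5, 91.4 and 10.6 CPM. Both were level with shscramble in replicate 1 (edgeR adjusted p = 0.977 and 0.391) and lower in replicate 2 (9.55e-11 and 1.59e-10). MYC and BRCA1 are named here after their values were seen. NFKB1 was somewhat lower, at 73.0, 72.9, 58.2 and 54.1 CPM, and its call in replicate 1 (edgeR adjusted p = 0.0237) was lost in 3 alternative settings.

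In the kinase cascade below the GADD45 proteins, calls also went both ways, as among all tested genes. The counts are a description, to be set beside the shares of all genes given above. Of 17 genes, all tested, 2 were called higher and 4 lower in replicate 1, and 6 higher and 7 lower in replicate 2, with medians of -0.15 and 0.10. MAP3K4, the MTK1 kinase that GADD45 proteins open, was at 64.0, 58.5, 47.7 and 36.5 CPM (edgeR adjusted p = 0.018 and 4.16e-05), and its call in replicate 1 was lost in 3 alternative settings. MAP2K7, the kinase that GADD45B can block, was at 59.2, 55.7, 49.6 and 72.5 CPM, with no call in replicate 1 (edgeR adjusted p = 0.144) and one in replicate 2 (0.0388) that was lost in 3 alternative settings. MAPK14, which encodes p38 alpha, was at 118, 119, 86.1 and 98.7 CPM, and MAPKAPK2, its substrate kinase, at 362, 358, 237 and 251 CPM. Both genes were lower in each shGOLM1 library, and the call of MAPK14 in replicate 2 was lost with DESeq2 and with the stricter filter. JUN was at 44.98, 42.2, 56.4 and 266 CPM, and was higher in replicate 2 than in replicate 1 (edgeR adjusted p = 3.1e-08). Among the genes outside the naming rule, named after their values were seen, MAP3K1 was higher in replicate 1 (log2 difference 1.22). In replicate 2, ATF2 (1.10) and MAPK13 (1.89) were higher, and the p38 and JNK activators MAP2K4 (-1.46) and MAP2K6 (-1.53) were lower. MAPK10 had 1, 6, 12 and 55 counts and a difference of 4.02 in replicate 2. In the fit of replicate 2 it passed the filter on low counts only through the library in which it is high, so nothing is read from it.

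At the G2/M transition, where GADD45 proteins meet CDK1 and cyclin B1, 2 of 15 genes were called higher and 9 lower in replicate 1, and 6 higher and 9 lower in replicate 2. Of these, 7 were lower in both, 1 was higher in both and 3 had opposite calls. The median log2 difference was -0.48 in replicate 1 and -0.47 in replicate 2. As for the other lists, the counts are to be set beside the shares of all genes given above, and no result about the list is read from them. CCNB1 (cyclin B1) stood at 388, 368, 240 and 221 CPM, and AURKA (Aurora kinase A), a GADD45A partner, at 211, 204, 103 and 76.3 CPM. CDK1 itself was lower in replicate 1 and higher in replicate 2, at 90.8, 83.4, 57.0 and 175 CPM (edgeR adjusted p = 0.000242 and 7.99e-07), and CCNB2 did the same with 104, 89.2, 55.7 and 153 CPM. CCNA2 (cyclin A2) was at 262, 257, 159 and 222 CPM, and its call in replicate 2 (edgeR adjusted p = 0.035) was lost in 3 alternative settings. CDKN1A, the p21 gene, whose product inhibits cyclin-dependent kinases, was higher in both, at 103, 97.9, 401 and 1248 CPM (edgeR adjusted p = 3.44e-12 and 4.72e-13).

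For the repair and demethylation partners, too, calls went both ways, as among all tested genes. No result about the list is read from the counts beside the shares given above. Of 17 tested genes (TET1 was at 0 in shscramble), 6 were called higher and 6 lower in replicate 1, and 6 higher and 8 lower in replicate 2, with medians of -0.05 and -0.13. PCNA, the sliding clamp that GADD45 proteins bind, was at 331, 299, 135 and 128 CPM and called lower in both shGOLM1 libraries. APEX1, the base excision repair endonuclease gene, was at 247, 222, 160 and 177 CPM and also lower in both, though not in replicate 2 with the stricter filter. TDG, the glycosylase that removes oxidised methylcytosine, was at 134, 129, 76.1 and 32.8 CPM (edgeR adjusted p = 9.23e-06 and 6.57e-10). ERCC5, which encodes the repair nuclease XPG, was at 1.62, 2.70, 2.94 and 9.30 CPM and was called higher in replicate 2 (edgeR adjusted p = 1.69e-05). ING1, which guides GADD45A to chromatin, and the dioxygenase gene TET3 had opposite calls, ING1 at 47.6, 40.7, 23.5 and 109 CPM and TET3 at 31.8, 34.8, 49.99 and 9.70 CPM.

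GADD45A is a DNA damage response gene, so its levels were set beside 25 other genes of the growth arrest induced by DNA damage. These genes, too, were chosen with earlier results of these data known. Their counts of calls are a description, to be set beside the shares of all genes given above. Of 24 tested (PHLDA3 was at 0 in shscramble), 16 were called higher and 0 lower in replicate 1, and 18 higher and 4 lower in replicate 2, and 15 were higher in both. The median log2 difference of the list was 0.94 in replicate 1 and 1.12 in replicate 2. In replicate 1, 18 of these 24 genes had a larger log2 difference than GADD45A and all 24 a larger one than GADD45B. In replicate 2, 2 of 24 lay above GADD45A and 1 above GADD45B. MDM2, a ubiquitin ligase gene, was at 146 and 165 CPM in shscramble, 920 CPM in replicate 1 and 284 CPM in replicate 2, the reverse order of the shGOLM1 libraries from that of GADD45A. CCNG1 (cyclin G1) was at 260, 263, 498 and 884 CPM, higher in both.

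The stress genes that carry the GADD name, with genes of the integrated stress response, were higher in shGOLM1 replicate 2 than in replicate 1. This list was chosen with earlier results of these data known. Its counts of calls are therefore a description, and no result about the list is read from them. Of 11 genes, all tested, 4 were called higher and 4 lower in replicate 1, and 10 higher and 0 lower in replicate 2, with medians of 0.32 and 3.13. All 11 were higher in replicate 2 than in replicate 1 in the fit of that difference, in which 30% of all genes were. DDIT3 (GADD153 or CHOP) was at 13.0, 10.8, 6.71 and 319 CPM, lower in replicate 1 (edgeR adjusted p = 0.00183) and higher in replicate 2 (9.22e-14). PPP1R15A (GADD34), the phosphatase subunit that reverses the translation block of this response, was at 26.5, 22.3, 30.6 and 855 CPM, with no call in replicate 1 (edgeR adjusted p = 0.0864, and a call in 2 alternative settings). DDIT4, an inhibitor of mTORC1, was at 17.4, 19.4, 86.0 and 1877 CPM, and ATF3 at 30.7, 30.4, 67.3 and 641 CPM, and both were higher in each shGOLM1 library. SESN2 was likewise higher in each, and TRIB3 reached 392 CPM in replicate 2 from 72.4 and 73.1 CPM in shscramble.

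In replicate 2, 5 of the 11 stress genes had a larger log2 difference than GADD45A and 1 had a larger one than GADD45B. GADD45GIP1, whose product binds GADD45G and also serves the mitochondrial ribosome, was at 180, 152, 111 and 177 CPM, lower in replicate 1 (edgeR adjusted p = 0.000498) and without a call in replicate 2 (0.785). Library composition moved with this split: replicate 2 held the lowest share of mitochondrially encoded counts and the highest share of ribosomal protein counts of the 4 libraries, as given above. The part of these differences in the levels of the GADD45 and stress genes was not tested.

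**Figure D4:**
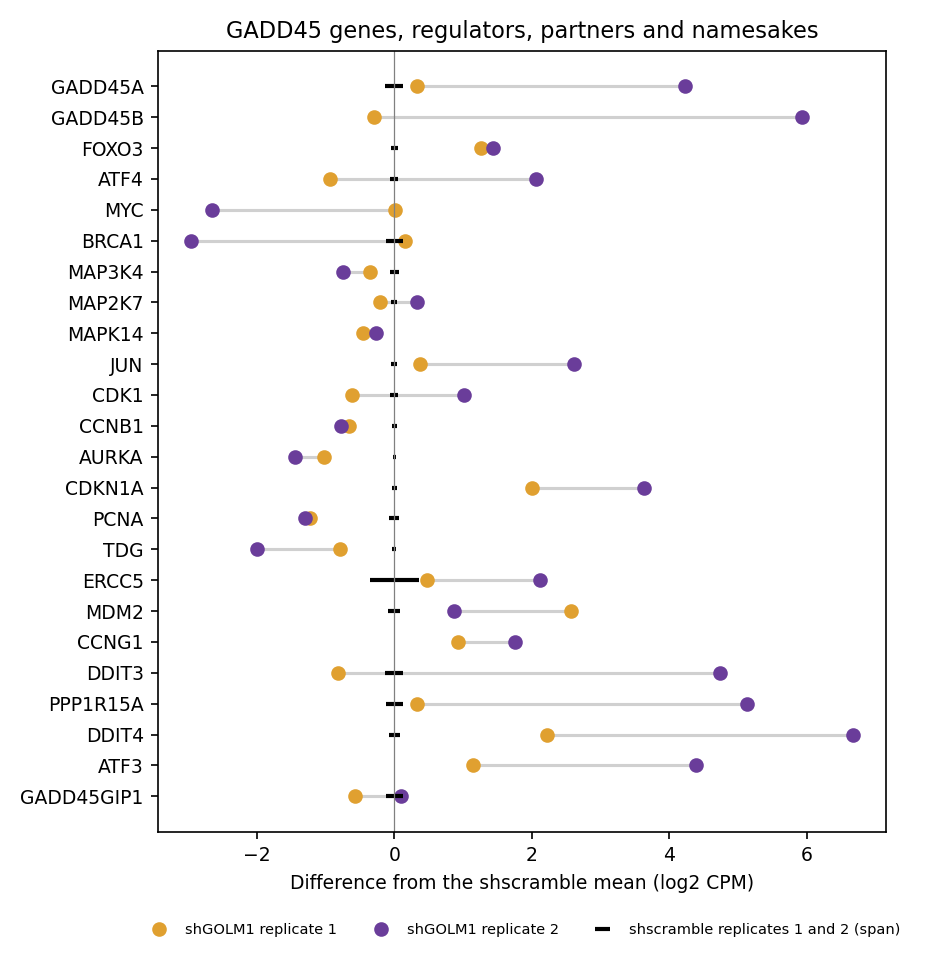
Log2 CPM difference of each shGOLM1 library from the shscramble mean for GADD45A, GADD45B and 22 regulators, partners and namesakes, with black bars for the span of the shscramble libraries. The points of both GADD45 genes, DDIT3 and PPP1R15A are close to 0 or below it in replicate 1 and above 4 in replicate 2, whereas MDM2 is higher in replicate 1.

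Genes of the IL12 and IL18 route, which feeds GADD45B and GADD45G in T cells, had calls both ways, as all tested genes did. The list is too short for its counts to be read against the shares of all genes. Of 9 genes (TBX21 and IL2 were at 0 in shscramble), 6 were tested in replicate 1, with 2 called higher and 2 lower, and 7 in replicate 2, with 2 higher and 4 lower. IL18RAP, a subunit of the IL18 receptor, had 26.9 and 27.97 CPM in the shscramble pair against 1.90 and 1.76 CPM in the shGOLM1 pair (edgeR adjusted p = 1.85e-12 and 2.06e-10). Its partner IL18R1 was at 9.28, 8.92, 4.06 and 0.527 CPM and lower in both. IL12RB2, a subunit of the IL12 receptor, had opposite calls, at 13.7, 14.5, 26.2 and 4.87 CPM. The genes called higher in replicate 2 were IFNG, the interferon gamma gene, and STAT4, the transcription factor gene downstream of IL12. IFNG had 1, 0, 0 and 39 counts, and STAT4 was at 9.19, 8.83, 9.59 and 14.1 CPM. IFNG is the gene tested in replicate 2 and not in replicate 1. It passed the filter on low counts only through the library in which it is high, so nothing is read from its call. EOMES, which encodes a T-box factor, was lower there, at 21.8, 25.0, 19.1 and 1.18 CPM. These last 3 genes are named after their values were seen.

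**Figure D5:**
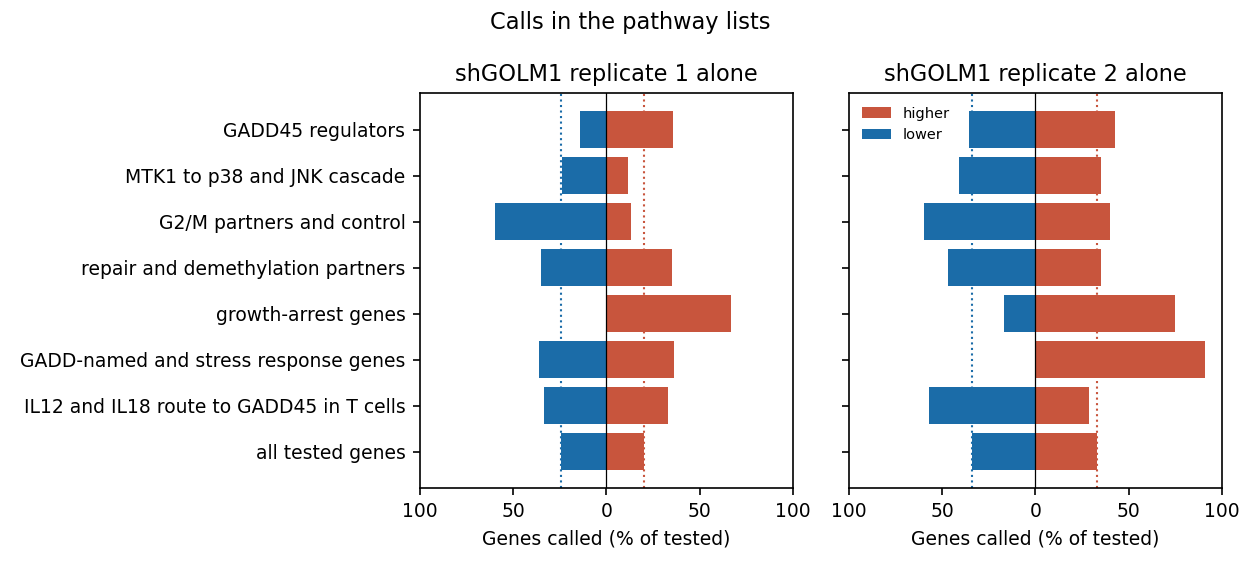
Share of the tested genes of each list called higher (right of 0) or lower (left of 0) in each shGOLM1 library against shscramble, in percent, with dotted lines for the shares of all tested genes. The lists were chosen with earlier results of these data known, so the shares are a description. The growth-arrest genes reach 16 of 24 higher in replicate 1 and 18 of 24 in replicate 2, and the GADD-named and stress genes 4 of 11 and 10 of 11.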

How the data were processed

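RNA was extracted with a column kit and libraries were made with a SMARTER mRNA kit, per the labels' protocols. For the aligner, counting tool and strand setting, versions and names were not given in the sources used here. Builds named in the submitters' processing notes are GRCm38 and mm10, whereas all 58735 gene identifiers of the table are those of human GENCODE 29 (GRCh38). The deposited counts are whole reads per gene, not normalized, per the file headers. The authors' FPKM are scaled by gene length and depth. The authors' mean signal per group, log2 fold change and p-value stand in the same table, and only the fold change is quoted.

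Counts were fitted with edgeR 4.0.16 (limma 3.58.1, R 4.3.3): TMM scaling, filterByExpr, two-sided quasi-likelihood tests, Benjamini-Hochberg adjustment over all tested genes. Log2 CPM used a prior count of 2. Ratios carry 95% exact conditional binomial intervals. The scripts were tested on simulated data. Library totals were 31972153 and 31608073 (shscramble) and 30889185 and 27544171 (shGOLM1), with TMM factors of 1.02, 1.05, 1.12 and 0.827.

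Members and lists were chosen with earlier results of these data known. Besides the members and their direct partners, each list named up to 3 genes called alike in both single-library fits and up to 2 with opposite calls, by mean CPM. The alternatives were other scalings, filters and tools (DESeq2 1.42.0), a replicate block and leaving out each library. A few list genes are not reported here.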

Additional observations from a re-analysis of the deposited data

How the results depend on the processing

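Of 25 alternative counts of called genes 18 stayed within 1.5 times the reported count. The exceptions all concern the fit of all 4 libraries, which called 0 genes: 192 without a filter on low counts (175 higher, 17 lower), 533 with DESeq2 (485 and 48) and 203 with a replicate block (169 and 34). Leaving out a library gave 20 to 10290 calls, with 20 without shscramble replicate 2, 22 without shscramble replicate 1, 6721 without shGOLM1 replicate 2 and 10290 without shGOLM1 replicate 1. Same-numbered libraries had a correlation of deviations of -0.10 across 14166 genes. With 2 libraries per group this value cannot show whether same-numbered libraries were prepared together, which the labels do not state. Without TMM factors, library totals moved the median of all genes by 0.11 (replicate 1) and -0.32 (replicate 2), and the share of calls that were higher from 45.9% to 57.9% in replicate 1, from 49.3% to 39.2% in replicate 2 and from 47.6% to 30.8% between the replicates. With library totals GADD45A in replicate 2 was at 3.90, and GADD45B at -0.18 and 5.60 in replicates 1 and 2. GADD45B was at 5.96 in replicate 2 with DESeq2-type size factors, and at -0.31 and 5.88 with the authors' FPKM. Of 487 alternative values of named genes 455 kept their call, 24 lost it, 7 gained it and 1 turned: MAPKAPK2 in replicate 2 against replicate 1 was at -0.36 with library totals. Of 70 alternative list counts 10 moved by over 1.5 times. The causes were not tested, apart from the scaling and the number of genes or libraries that each alternative changes itself. Leaving out a shscramble library from a fit of a single shGOLM1 library leaves no residual degrees of freedom, so no test was made. At these depths GADD45G, at 0 to 9 counts, does not allow a difference between groups to be read.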
